A study of Mus musculus with 22 samples.

Results

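The regions described here are the 309 of 26201 H3K4me3 regions, over the 4 deposited comparisons of synovial fibroblasts, that the authors' annotation places in a gene desert (257 regions) or a pericentromere (52 regions). They were taken by that annotation alone. Fibroblasts of Tg197 mice, which overexpress human TNF from a transgene and become arthritic, were set against wild-type (WT) fibroblasts at ages of 3, 8 and 11 weeks. A further group was 8-week WT fibroblasts given TNF, set against untreated ones. Each of these 7 groups had 3 ChIP libraries, and 1 input library was of mixed genotype. All cells were cultured synovial fibroblasts at passages 4 to 5 from mice of mixed CBA and C57BL/6J background. The sources used here give neither a dose nor a duration for TNF. They also leave unsaid if libraries within a group stem from different mice or cultures, so p-values measure the spread between these libraries only. Every row had been listed because its best window passed p of 0.0001 in the authors' comparison of the same libraries, so regions with no difference were not part of the data.

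H3K4me3, trimethylation of lysine 4 on histone H3, marks the start sites of active and poised genes and is sparse elsewhere. Gene deserts are long stretches without annotated protein-coding genes, and they can hold distant enhancers and the promoters of non-coding transcripts. Pericentromeres flank the centromere, consist largely of tandem satellite repeats, and in mouse cells are packed as heterochromatin marked by H3K9me3 rather than by H3K4me3. In fibroblasts of the joint lining, TNF acts through its receptors to switch on inflammatory and matrix-degrading genes. Reads from satellite and other repeated sequence can match many copies, so a count in such a region need not come from that position alone. The sources used here do not say how the authors treated such reads.

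The comparison of 3 weeks listed 117 gene desert and 33 pericentromere regions, that of 8 weeks 64 and 9, that of 11 weeks 60 and 6, and that with TNF 16 and 4. Per library, from 321448 reads (TNF-treated library a) to 2780941 reads (Tg197 library b at 3 weeks) fell in listed regions of any class. Gene desert and pericentromere regions took between 6.43% and 13.1% of those reads at 3 weeks, and at most 3.18% in the other comparisons. Of 10 synovial fibroblast marker genes, 7 had a listed region at 3 weeks, 3 at 8 weeks, 4 at 11 weeks and 4 in the TNF comparison. In the same order these counts were 1, 2, 1 and 0 of 7 leukocyte markers, 3, 0, 2 and 1 of 5 endothelial markers, 1, 1, 0 and 0 of 3 muscle markers, 4, 4, 3 and 3 of 5 cartilage and bone markers, and 2, 0, 1 and 0 of 4 nerve sheath and epithelial markers. Since a listed region needs a difference, the counts show only which markers were listed and do not check the cell type.

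The regions lay on 20 chromosomes, partly in clusters. Joined where they were at most 1 Mb apart, the 309 formed 110 loci, of which 60 held 1 region and 15 held 5 or more, with 161 regions between them. Chromosome 12 carried 50 regions, chromosome 1 carried 35, chromosome 16 carried 26, and chromosomes 8 and 13 carried 24 each. The locus with most regions spanned chr12:18906601-20622100 on the mm9 build and held 26 regions. Neighbouring regions of a locus share their libraries and often their sequence, so they are not independent measurements.

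Most of these regions held little H3K4me3. The authors' enrichment is a ratio of ChIP over input, and at 3 weeks its median over the 150 regions was 0.75 in Tg197 and 0.985 in WT cells, against 2.23 in Tg197 and 2.58 in WT cells over all 13603 listed regions. In WT cells 77 of the 150 regions (51.3%) were below 1, that is with less ChIP than input signal, against 3.64% of all listed regions. In pericentromeres that share was 28 of 33 (84.8%). At 8 weeks 57.5% of the gene desert and pericentromere regions were below 1 in WT cells, against 9.0% of all listed regions, and at 11 weeks 37.9%, against 2.78%. In the TNF comparison the median enrichment of the 20 regions was 1.33 in treated and 3.19 in untreated cells. Over all 3082 listed regions it was 4.17 in treated and 2.98 in untreated cells. In untreated cells 1 of the 20 (5.0%) was below 1, against 0.227% of all listed regions.

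**Figure D1:**
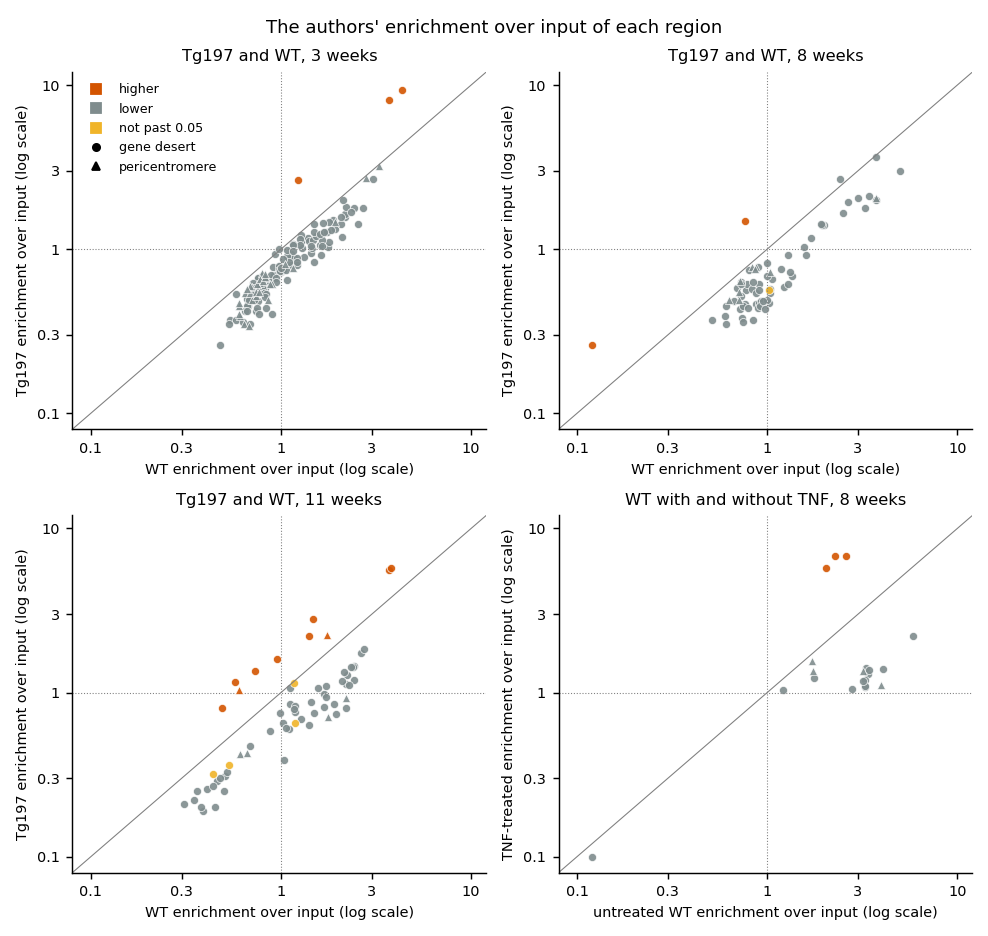
The authors' enrichment over input of each region on log axes, with Tg197 or TNF-treated cells on the vertical axis and WT or untreated cells on the horizontal axis; the diagonal marks equal enrichment and the dotted lines mark 1. Most regions lie below the diagonal and many below 1, and the 3 higher regions at 3 weeks and the 3 in the TNF comparison lie far above the diagonal (orange, against grey for lower and yellow for not past 0.05), at up to 9.32 in Tg197 and 6.78 in TNF-treated cells.

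At 3 weeks nearly all of the gene desert and pericentromere regions carried less signal in Tg197 cells. By the authors' adjusted p of 0.05, 147 of the 150 were lower and 3 were higher in Tg197 cells, whereas over all listed regions 89.5% were lower and 9.71% higher. The share of lower regions was thus near that of the whole table. In intergenic regions outside gene deserts 97.9% were lower, and in gene bodies 98.4%. In limma on the normalized counts of each library, 135 fell and 3 rose past an adjusted p of 0.05, against 88.9% that fell and 4.68% that rose over all listed regions. The median log2 change was -0.90 over the 150 regions, against -0.70 over all 13603. All 3 Tg197 libraries lay below all 3 WT libraries in 110 of the 150 (86.4% of all listed regions), and above them in 3 (6.29%).

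The 3 libraries of a group, called a, b and c here by their order in the deposited cells, did not lie equally low. As the median log2 distance from the mean of the WT libraries, Tg197 libraries a, b and c stood at -0.81, -1.52 and -0.28, and the WT libraries at 0.01, 0.00 and -0.02. Tg197 library b was the lowest of the 6 in 141 of 150 regions, and Tg197 library c was the highest of the 6 in 18. The Tg197 libraries had the same order in the 12026 lower regions of other classes, at medians of -0.62, -1.02 and -0.49. The deposited counts had been scaled per library, with 1.26, 1.72 and 0.74 reads behind each normalized unit in Tg197 libraries a, b and c, and 0.95, 0.89 and 0.81 in WT libraries a, b and c. The Tg197 libraries thus followed the reverse order of their scaling. Over the 4 comparisons, the library with most reads per unit had the lowest median of these regions in 7 of 8 groups, the untreated WT cells of 8 weeks being counted in both comparisons that use them. The scaling moved the calls. With every library scaled to the median of the listed regions, which moved the median log2 change of all listed regions to -0.04, the median of the 150 was -0.23 and 0 fell. With the offset between the enrichment columns and the counts added, 0 fell at a median of -0.40. Over all listed regions 0.0441% fell under the first of these scalings and 0.0956% under the second. Without WT library c 0 of the 150 and 0 of all 13603 regions passed limma, while the median log2 change was -0.88 over the 150 and -0.67 over all, close to the values with all libraries.

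**Figure D2:**
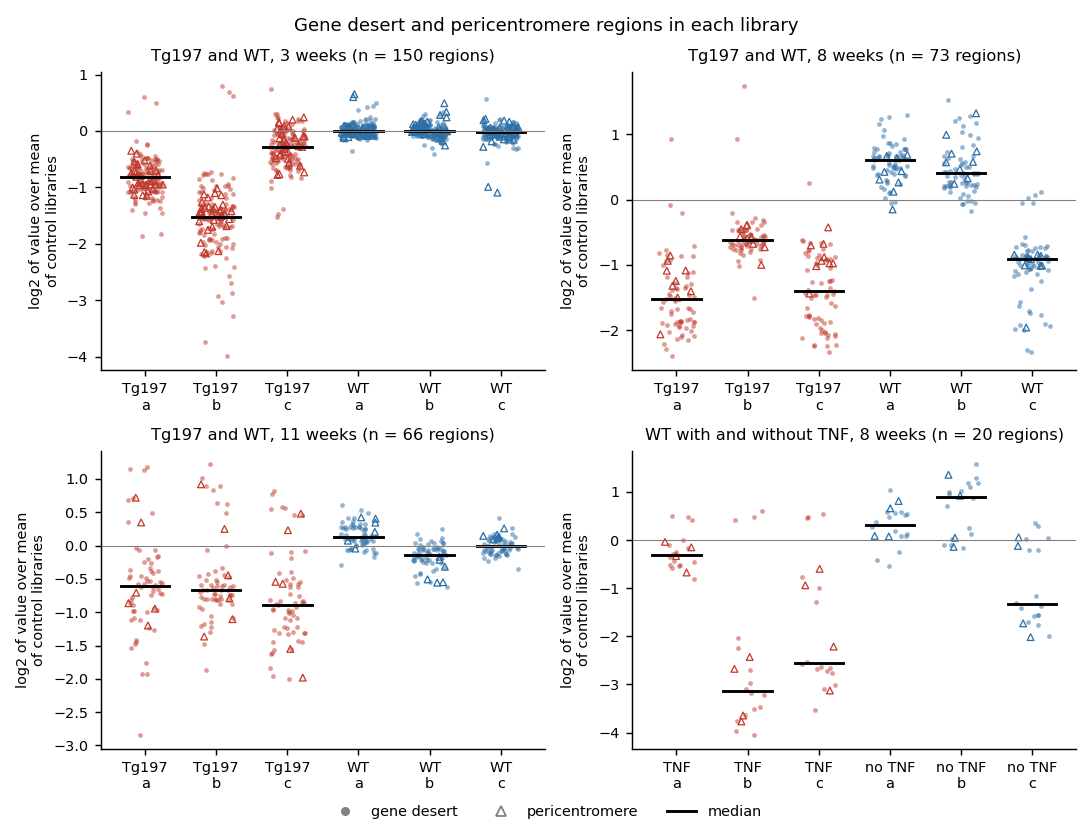
Each gene desert (dot) and pericentromere (open triangle) region in each library, as the log2 of its normalized count over the mean log2 of the control libraries of the same comparison, with the median as a black bar. Tg197 library b at 3 weeks and TNF-treated libraries b and c stand lowest, at medians of -1.52, -3.14 and -2.55, and WT library c stands at -0.91 in the 8 week comparison with Tg197.

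The pericentromere regions of 3 weeks held the highest counts of all. The 5 regions on chromosome 9, neighbours within chr9:3009801-3039200, together had 136819, 85661 and 194276 normalized counts in Tg197 libraries a, b and c, against 262655, 301848 and 253296 in WT libraries a, b and c. Every Tg197 library was below every WT library. The most abundant of them, chr9:3031901-3035600, had 73472, 49413 and 107533 normalized counts in Tg197 libraries, against 133262, 153437 and 140022 in WT libraries. That is 76806 ± 29203 against 142240 ± 10269 (SD, n = 3 each). Its enrichment was 0.52 in Tg197 and 0.74 in WT cells, so the ChIP held less of it than the input did in both genotypes. The log2 change was -0.96 ± 2.13 (SE), with a limma adjusted p of 0.66. The SD between libraries was 0.561 in Tg197 and 0.103 in WT cells on the log2 scale, so limma's SE is far wider than this spread. The SE also takes in limma's variance trend over all listed regions, so this adjusted p rests largely on that trend. Its neighbours chr9:3009801-3011000 and chr9:3012501-3014100 did not pass either, with log2 changes of -1.27 and -1.11 and limma adjusted p of 0.241 and 0.432. Their SE of 1.03 and 1.36 were likewise wider than the SD between Tg197 libraries, 0.753 and 0.598. The other 2 of the 5 fell, and the lower of these in counts, chr9:3038201-3039200, had a log2 change of -1.03 ± 0.27 and an adjusted p of 0.01425 by limma.

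Of the 33 pericentromere regions 27 fell by limma and 0 rose. Chromosome 16 carried 17 of them within chr16:3115501-3390800, of which 16 fell at a median log2 change of -0.80. Without Tg197 library b 10 fell at a median of -0.51, while 85.7% of all listed regions fell. Without WT library c the median was again -0.80, with 0 fallen as in the whole table. In chr16:3121901-3124100 the counts were 245, 138 and 348 in Tg197 libraries, against 469, 415 and 522 in WT libraries. Its log2 change was -1.04 ± 0.27, with a limma adjusted p of 0.01425. A second region there, chr16:3286601-3288100, had 85.8, 36.5 and 149 in Tg197 libraries and 163, 178 and 159 in WT libraries. The groups did not overlap in either region, and Tg197 library c came nearest to WT in both. The region that did not pass, chr16:3115501-3116700, was the one with the highest enrichment of the pericentromere regions, at 3.22 in Tg197 and 3.29 in WT cells. There Tg197 library c, at 1847, was above all 3 WT libraries, which had 1666, 1835 and 1709, while Tg197 libraries a and b had 1314 and 765.

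The 2 pericentromere regions on chromosome Y set WT library c apart. In chrY:2786301-2787700 the Tg197 libraries had 495, 242 and 626 normalized counts, and the WT libraries a, b and c had 1457, 1351 and 450. In chrY:2868101-2869900 the Tg197 libraries had 534, 241 and 623, and the WT libraries 1684, 1353 and 538. WT library c thus lay within the range of the Tg197 libraries, and its ratio to the mean of WT libraries a and b, 0.32 and 0.355, was among the 20 lowest of the 13603 listed regions, with 0 below that of the first and a median of 1.07. These regions and this ratio were picked after the values were seen, so the rank is descriptive only. Both regions fell, with log2 changes of -1.19 ± 0.42 and -1.31 ± 0.41 and limma adjusted p of 0.0193 and 0.0150. Without WT library c the changes were -1.73 and -1.81, with an adjusted p of 0.0646 for both.

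In the gene deserts of 3 weeks, 10 neighbouring regions on chromosome 13 set Tg197 library b apart in the same way. They lay within chr13:65625301-66903600 and summed to 1088, 214.5 and 1416 normalized counts in Tg197 libraries a, b and c, against 1666, 1607 and 1593 in WT libraries. As reads these were 1369, 370 and 1043 in Tg197 libraries and 1586, 1438 and 1293 in WT libraries, so library b had fewest reads there although it was the deepest of the 6. The ratio of library b to the mean of Tg197 libraries a and c had a median of 0.177 over the 10 regions, from 0.08 to 0.329, against a median of 0.755 over all 13603 listed regions. The lowest ratio of the whole table lay there, 6 of its 20 lowest did, and 9 of the 10 were below its lowest percentile of 0.325. This block and ratio were likewise picked after the values were seen, so these ranks are descriptive only. The 4 other listed regions in the surrounding window were of other classes. The intergenic region chr13:65259201-65260700 had 89.0, 47.5 and 137 in Tg197 libraries and 160, 154 and 143 in WT libraries, with library b again the lowest and a ratio of 0.42. The intergenic region chr13:67208401-67209600 had 315, 292 and 287 in Tg197 libraries and 205, 256 and 195 in WT libraries, with a ratio of 0.97. The promoter region of Hiatl1 had 404, 387 and 170 in Tg197 libraries and 236, 250 and 243 in WT libraries, and that of Zfp456, a zinc finger gene, had 250, 193 and 253, against 145, 175 and 168. Their ratios were 1.35 and 0.769.

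**Figure D3:**
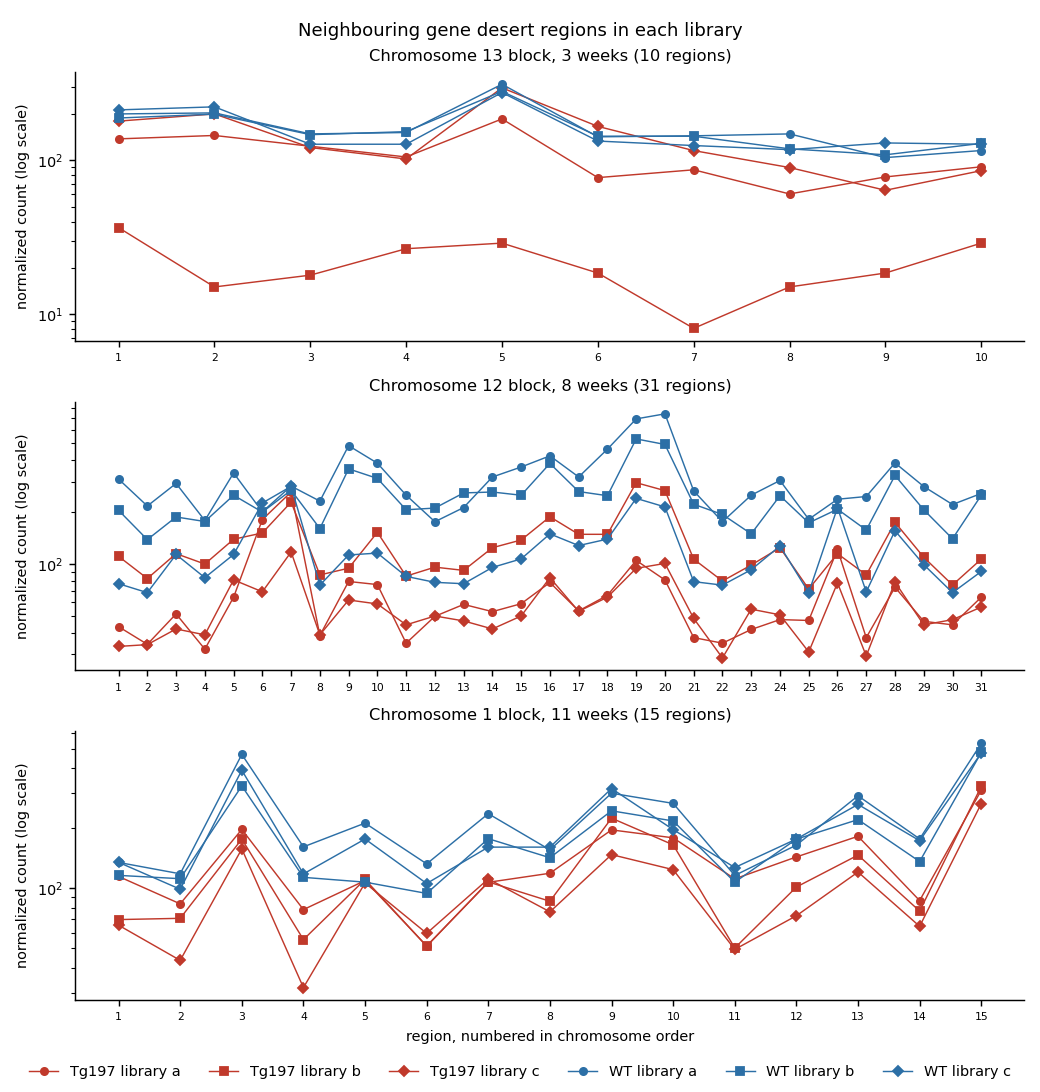
Normalized counts on a log axis for neighbouring gene desert regions numbered in chromosome order, with 1 line per library (Tg197 red, WT blue; circle, square and diamond for libraries a, b and c). On chromosome 13 at 3 weeks Tg197 library b runs between 8.12 and 36.5, below the other libraries in all 10 regions; on chromosome 12 at 8 weeks WT library c runs below WT libraries a and b in most regions; on chromosome 1 at 11 weeks the Tg197 lines run below the WT lines with little crossing.

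Of the 4 gene desert regions named for the largest decrease at 3 weeks, 2 lay in that block. In chr13:66535401-66536400 the counts were 86.6, 8.12 and 115 in Tg197 libraries, against 144, 143 and 124 in WT libraries. The log2 change was -1.63 ± 0.72, with a limma adjusted p of 0.0440. In chr13:66598001-66599000 they were 60.4, 15.1 and 89.6, against 148, 118 and 117, with a log2 change of -1.53 ± 0.53 and an adjusted p of 0.0178. The median log2 change of the 10 regions was -1.23, and 7 of them fell by limma. Without Tg197 library b the median was -0.40 and 5 fell, against 85.7% of all listed regions.

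The largest decrease of all at 3 weeks was at chrX:121324701-121325800, with 70.7, 21.5 and 48.9 in Tg197 libraries, against 168, 136 and 124 in WT libraries. Its log2 change was -1.74 ± 0.40, with a limma adjusted p of 0.01425, and the groups did not overlap. It was 1 of 13 gene desert regions within chrX:121263501-122705700, all of which fell, with a median log2 change of -1.10. Without Tg197 library b their median was -0.77 and 12 fell, against 85.7% of all listed regions. At chr2:171640301-171641500 the counts were 93.0, 33.6 and 57.0 in Tg197 libraries and 173, 121 and 158 in WT libraries, a log2 change of -1.39 ± 0.32 (limma adjusted p of 0.01425). On chromosome 17, 9 regions within chr17:38658101-38700800, between the annotated genes H2-M3 and 9130008F23Rik, all fell, with a median of -0.80. In RefSeq's order on GRCm38, 91 genes lie between these 2, of which 59 code for proteins. Without WT library c neither the chromosome X nor the chromosome 17 regions passed, at medians of -1.17 and -0.80.

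The 3 most abundant gene desert regions of 3 weeks lay on chromosomes 2 and 8. On chromosome 2, chr2:98503101-98505000 had 2769, 2626 and 8206 in Tg197 libraries, against 10369, 9873 and 9817 in WT libraries. Its log2 change was -1.36 ± 0.50, with a limma adjusted p of 0.0216, and its enrichment was 0.26 in Tg197 and 0.48 in WT cells. Tg197 library c lay close to WT there. On chromosome 8, chr8:56199201-56202300 and chr8:56206001-56207700 had 2038, 1244 and 3520 and 2188, 1241 and 3308 in Tg197 libraries, against 2868, 2788 and 2865 and 2802, 2841 and 2846 in WT libraries. In both, Tg197 library c was above WT and libraries a and b were below it. Neither passed limma, with adjusted p of 0.225 and 0.222, although both were lower by the authors' adjusted p.

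Only 3 regions were higher in Tg197 cells at 3 weeks, all in gene deserts. The first and the second had the highest enrichments in Tg197 cells of all 150 regions. In chr8:33119001-33120500 the counts were 525, 561 and 392.4 in Tg197 libraries, against 326, 364 and 351 in WT libraries, and the enrichment was 9.32 in Tg197 and 4.32 in WT cells. The Tg197 mean was 1.42-fold that of WT, with a log2 change of 0.49 ± 0.19 and a limma adjusted p of 0.0247. It lay between the annotated genes Mak16, whose product acts in ribosome assembly, and Wrn, a DNA helicase, 840 kb and 1224 kb away. In RefSeq's order of genes on GRCm38 (the coordinates of the regions are on mm9), 3 protein-coding genes lie between Mak16 and Wrn: Fut10, Nrg1 and Gm3985. Nrg1 encodes neuregulin, a ligand of ErbB receptors.

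The second, chr12:20621101-20622100, had 196, 243 and 158 in Tg197 libraries, against 138, 126 and 154 in WT libraries. Its enrichment was 8.16 in Tg197 and 3.72 in WT cells, and its log2 change was 0.49 ± 0.19 (limma adjusted p of 0.0279). The third, chr10:72561901-72563100, had 136, 165 and 181 in Tg197 libraries, against 118, 96.1 and 108 in WT libraries. Its enrichment was 2.63 in Tg197 and 1.23 in WT cells, and its log2 change was 0.57 ± 0.18 (limma adjusted p of 0.0157). In all 3 the libraries of the 2 genotypes did not overlap. Without WT library b or without WT library c none of the 3 passed limma, with log2 changes between 0.43 and 0.58, and without WT library a or Tg197 library a only chr10:72561901-72563100 passed. Without Tg197 library b chr12:20621101-20622100 did not pass, at 0.34. Over all 13603 listed regions the share that rose also shrank, from 4.68% with all libraries. It was 0.816%, 0.978% and 0.0% without WT library a, b or c, and 2.1% and 3.94% without Tg197 library a or b. The enrichment columns set Tg197 higher against WT than the counts do, by a median (over listed regions of all classes with an enrichment of at least 2 in both groups) of 0.50 on the log2 scale at 3 weeks, 0.60 at 8 weeks and 0.07 at 11 weeks, and TNF-treated cells higher by 1.06, so a ratio of enrichments is not the ratio of counts.

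Some lower regions of 3 weeks were also enriched. A pair of them, picked out after its values were seen, lay 13.7 kb and 11.3 kb from the annotated gene Zfhx3, a zinc finger homeobox transcription factor. In chr8:111222601-111224800 the counts were 180, 162 and 170 in Tg197 libraries, against 273, 278 and 285 in WT libraries. Its enrichment was 2.68 in Tg197 and 3.03 in WT cells. Its log2 change was -0.71 ± 0.16, with a limma adjusted p of 0.01425. Here the 3 Tg197 libraries lay close together and below all WT libraries. In the other, chr8:111225301-111227200, the counts were 208, 172 and 204, against 336, 315 and 238, a log2 change of -0.59 (limma adjusted p of 0.0151).

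At 8 weeks 70 of 73 gene desert and pericentromere regions were lower in Tg197 cells by the authors' comparison (77.2% of all listed regions). Another 2 were higher (20.2%) and 1 did not pass. In intergenic regions outside gene deserts 94.9% were lower, and in gene bodies 93.4%, so the high share was not particular to these regions. By limma 0 of the 73 rose and 0 fell, as over all listed regions (0.0% each), and voom on the recovered reads also gave 0 in both sets. An unadjusted limma p under 0.05 was reached by 41 of the 73 and by 1876 of all 2923 listed regions. The groups were apart in 7, all lower in Tg197 (46.3% of all listed regions), and in 0 with Tg197 higher (16.9%). In the 71 regions with a lower Tg197 mean, WT libraries a and b were above all 3 Tg197 libraries in 71. WT library c was at or below the highest Tg197 library in 64. These counts were not made over all listed regions, so they are not a trait shown for these regions alone. The mean of WT libraries a and b was 2.69 times WT library c in the median region. WT library c was also lowest of the WT libraries in the 2187 lower regions of other classes. There the median log2 distances from the WT mean were 0.373, 0.223 and -0.625 in WT libraries a, b and c. Reads per normalized unit were 0.68, 0.64 and 1.39 in WT libraries a, b and c, and 1.87, 0.74 and 1.26 in Tg197 libraries a, b and c. Without WT library c, 69 of the 73 fell by limma, and 76.5% of all listed regions did. With scaling to listed regions near a transcription start site 42 of the 73 fell, and 58.8% of all listed regions did.

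Chromosome 12 held 31 of the 73 regions of 8 weeks, within chr12:18906601-25139700. The largest decrease was at chr12:20239001-20240600, with 79.1, 94.4 and 61.8 in Tg197 libraries, against 484, 355 and 113 in WT libraries. Its log2 change was -1.79 ± 0.49, with a limma adjusted p of 0.0725, and its enrichment was 0.37 in Tg197 and 0.84 in WT cells. The region with least spread, chr12:22811801-22813100, had 121, 115 and 77.6 in Tg197 libraries, against 237, 207 and 212 in WT libraries. Here WT library c lay with WT libraries a and b, and the log2 change was -1.09 ± 0.24 (limma adjusted p of 0.0725). The 2 most abundant of the block, chr12:20276501-20278300 and chr12:20283801-20285800, had 105, 295 and 94.3 and 80.7, 266 and 101 in Tg197 libraries, against 691, 529 and 240 and 740, 492 and 214 in WT libraries. Over the 31 regions the median log2 change was -1.47, and without WT library c it was -1.92 and 29 fell.

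A second block of 6 gene desert regions lay within chr1:85287301-85340200. Its regions summed to 937, 1439 and 603 normalized counts in Tg197 libraries, against 4150, 3222 and 473 in WT libraries a, b and c. WT library c was thus the lowest of the 6, also in reads, with 659 against 761 to 1754 in Tg197 libraries. The most abundant region, chr1:85338601-85340200, had 218, 328 and 133 in Tg197 libraries and 921, 742 and 103 in WT libraries, a log2 change of -0.96 ± 0.75 (limma adjusted p of 0.236). Over the 6 regions the median log2 change was -0.96 and 0 fell, and without WT library c it was -1.95 and all 6 fell, with a limma adjusted p of 0.00254. In the pericentromeres all 9 regions were lower by the authors' adjusted p. In chr13:3114301-3116300 the counts were 118, 328 and 258 in Tg197 libraries, against 769, 1238 and 127 in WT libraries, with an enrichment of 2.06 in Tg197 and 3.73 in WT cells. In chrX:3204701-3205800 they were 52.9, 70.1 and 71.3, against 224, 167 and 74.6, the only pericentromere region of 8 weeks whose groups did not overlap.

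The 2 higher regions of 8 weeks, named although their groups overlap, did not pass limma. In chr12:98298801-98299800 the counts were 384, 387 and 127 in Tg197 libraries, against 218, 179 and 212 in WT libraries. Its enrichment was 0.26 in Tg197 and 0.12 in WT cells, in both the lowest of the 73 regions. In chr17:38692701-38693700 Tg197 library b alone was high, with 42.2, 233 and 82.4 in Tg197 libraries, against 67.3, 73.8 and 66.7 in WT libraries. The limma adjusted p was 0.363 and 0.487.

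At 11 weeks 52 of 66 regions were lower and 10 higher in Tg197 cells by the authors' adjusted p, against 67.0% and 29.8% of all listed regions. In intergenic regions outside gene deserts 75.4% were lower, and in gene bodies 73.4%. By limma 54 of the 66 fell and 10 rose, against 67.7% and 29.6% of all listed regions. The Tg197 libraries lay below the WT libraries in 49 (67.1% of all listed regions) and above them in 8 (28.8%). The median log2 change of the 66 was -0.75, and leaving out any 1 library left between 50 and 54 regions that fell and 8 or 9 that rose. Over all listed regions between 65.6% and 67.3% fell and between 27.0% and 28.4% rose when 1 library was left out. Library medians were -0.60, -0.67 and -0.89 in Tg197 and 0.13, -0.13 and 0.00 in WT libraries. With every library scaled to the listed regions, 27 fell and 12 rose, against 10.3% that fell and 31.5% that rose over all listed regions.

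The chromosome 1 block of 8 weeks was also listed at 11 weeks, with 15 regions within chr1:85284801-85343900, all in gene deserts. They summed to 2068, 1815.5 and 1495 in Tg197 libraries, against 3461, 2767 and 3071 in WT libraries, and all 15 fell, with a median log2 change of -0.78. Leaving out any 1 library left 14 or 15 that fell, against 65.6% to 67.3% of all listed regions. The largest decrease, at chr1:85291601-85292600, was to 78.2, 55.3 and 31.8 in Tg197 libraries, against 161, 113 and 118 in WT libraries, a log2 change of -1.31 ± 0.28 (limma adjusted p of 0.00434). Its enrichment was 0.20 in Tg197 and 0.45 in WT cells. The 15 regions lay between 17.7 and 73.5 kb above the annotated gene C130026I21Rik.

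Outside that block, chr11:40905401-40907300 had a limma adjusted p of 0.00305. This was the lowest value among the 309 regions, and the chromosome 1 block also reached it. The counts of chr11:40905401-40907300 were 83.5, 82.0 and 56.1 in Tg197 libraries, against 220, 184 and 204 in WT libraries, a log2 change of -1.47 ± 0.17 with an enrichment of 0.74 in Tg197 and 1.95 in WT cells. In chr10:46422501-46424000 the counts were 21.4, 96.3 and 52.7 in Tg197 libraries, against 187, 120 and 172 in WT libraries, and the log2 change was -1.70 ± 0.40. In chr7:47368901-47369900 they were 34.3, 74.8 and 33.5, against 190, 116 and 102, with a log2 change of -1.56 ± 0.31. Both fell, with limma adjusted p of 0.00438 and 0.00434. On chromosome 4, 3 regions that fell lay between the annotated genes Klf4, a zinc finger transcription factor, and Ikbkap. The one nearest to Ikbkap, chr4:56643801-56645400, had 79.2, 114 and 62.8 in Tg197 libraries, against 172, 168 and 175 in WT libraries. These last were picked out after their values were seen.

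In the pericentromeres of 11 weeks, 4 regions fell and 2 rose. In chr13:3114501-3116200 the counts were 77.1, 68.6 and 60.3 in Tg197 libraries, against 235, 121 and 197 in WT libraries, a log2 change of -1.37 ± 0.22 (limma adjusted p of 0.00434). In chr16:3388901-3390000 they were 102, 91.2 and 49.4, against 264, 133 and 216, a log2 change of -1.34 ± 0.27. In chrX:3003801-3004800 they were 71.7, 67.6 and 78.7, against 114, 101 and 140. The 2 that rose were neighbours on chromosome 6. In chr6:3151401-3152400 the counts were 1116, 1043 and 1030 in Tg197 libraries, against 923, 781 and 936 in WT libraries, and the enrichment was 2.24 in Tg197 and 1.75 in WT cells. The difference was 1.21-fold, a log2 change of 0.28 ± 0.08 with a limma adjusted p of 0.00688. In chr6:3141401-3142400 they were 117, 134 and 98.8, against 81.7, 56.7 and 76.4, a log2 change of 0.71 ± 0.19.

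The 8 gene desert regions that rose at 11 weeks included the one with the highest enrichment, chr8:33117301-33119800. Its counts were 580, 702 and 670 in Tg197 libraries, against 467, 458 and 444 in WT libraries. The enrichment was 5.70 in Tg197 and 3.80 in WT cells, and the log2 change was 0.51 ± 0.09 with a limma adjusted p of 0.00434. It overlaps the region between Mak16 and Wrn that was higher at 3 weeks, where the log2 change was 0.49. A similar enrichment, 5.57 in Tg197 and 3.68 in WT cells, was found at chr1:7388401-7389400, between the annotated genes Pcmtd1 and Rrs1. There the counts were 136, 135 and 145 in Tg197 libraries, against 97.1, 97.7 and 94.4 in WT libraries, with the lowest SD within both genotypes of the 10 higher regions of 11 weeks (5.33 in Tg197 and 1.77 in WT cells), and with a log2 change of 0.52 ± 0.13 (limma adjusted p of 0.00457). Sntg1, which encodes a syntrophin, is the 1 protein-coding gene between those 2 in RefSeq's order on GRCm38.

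The largest increases were at less enriched regions. In chr12:20070401-20071600 the counts were 141, 149 and 87.9 in Tg197 libraries, against 67.3, 53.2 and 71.9 in WT libraries, a 1.96-fold difference and a log2 change of 0.94 ± 0.22 with an enrichment of 1.16 in Tg197 and 0.57 in WT cells. In chr17:83447401-83448400 they were 129, 105 and 86.2, against 69.5, 53.2 and 53.9, a log2 change of 0.84 ± 0.21, with enrichments of 2.81 and 1.48. In chr1:87407401-87408500 they were 123, 154 and 135, against 61.8, 70.6 and 101, a log2 change of 0.84 ± 0.19. In chr1:142861301-142862600 they were 175, 199 and 147, against 129, 95.1 and 97.7, a log2 change of 0.69 ± 0.16. Groups did not overlap in any of these 4, and the limma adjusted p was between 0.00434 and 0.00448.

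**Figure D4:**
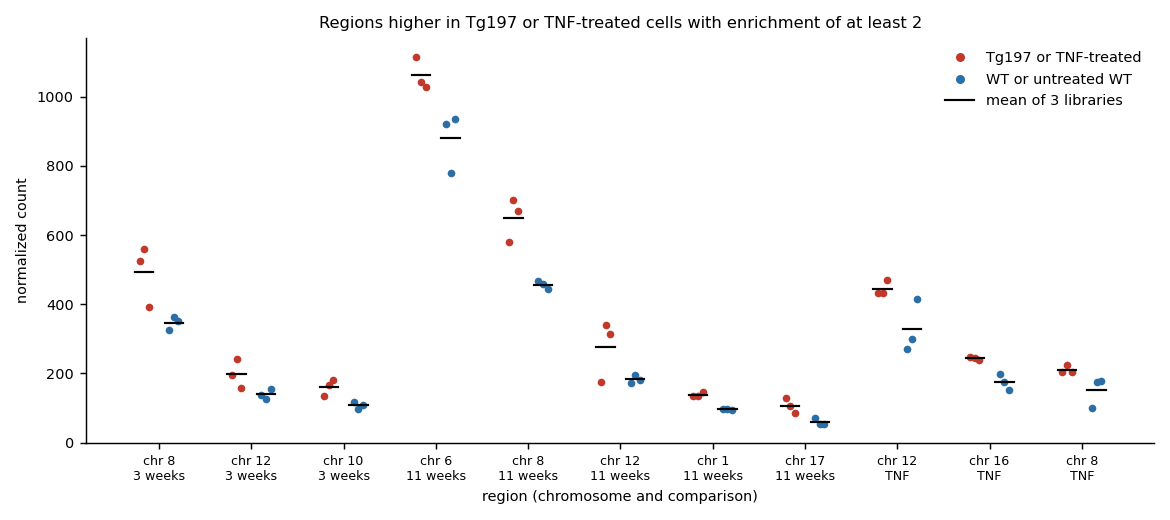
Normalized counts from 0 of the 11 regions that were higher by the authors' adjusted p and had an enrichment of at least 2 in at least 1 group, with each library as a point (Tg197 or TNF-treated red, WT or untreated WT blue) and the mean of 3 libraries as a bar. The region on chromosome 8 at 11 weeks runs from 580 to 702 in Tg197 and from 444 to 467 in WT libraries; at chromosome 12 at 11 weeks the lowest Tg197 library, at 176, lies among the WT libraries.

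In WT cells treated with TNF for comparison with untreated WT cells of 8 weeks, 17 of 20 regions were lower and 3 higher by the authors' adjusted p, against 72.3% and 24.6% of all listed regions. In intergenic regions outside gene deserts 93.2% were lower, and in gene bodies 95.2%. By limma 8 of the 20 fell and 2 rose, against 42.6% and 16.5% of all listed regions. The groups were apart in 3 regions with TNF higher (22.4% of all listed regions) and in 2 with TNF lower (51.8%). Library medians were -0.31, -3.14 and -2.55 in TNF-treated libraries a, b and c, and 0.32, 0.90 and -1.33 in untreated libraries a, b and c. The reads per normalized unit were 0.55, 2.75 and 1.82 in treated and 0.58, 0.54 and 1.23 in untreated libraries. The untreated libraries are those set against Tg197 cells at 8 weeks, so the 2 comparisons share them. Without treated library b or c, or without untreated library a or b, limma called 0 of the 20 and 0 of all 3082 regions. Without treated library a 17 fell and 1 rose, against 45.9% and 11.1% of all listed regions. Without untreated library c 12 fell and 3 rose, against 68.4% and 21.4%. With every library scaled to the listed regions, 0 fell and 3 rose, against 259 and 772 of all 3082 regions.

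The 3 higher regions were all in gene deserts, and their enrichment in treated cells was between 5.73 and 6.78. In chr16:84703301-84704600 the counts were 246, 244 and 239 in TNF-treated libraries, against 199, 177 and 151 in untreated libraries. The treated libraries lay close together (243 ± 3.42, against 175.5 ± 24.1, SD, n = 3 each) and above every untreated library. Its enrichment was 6.78 in treated and 2.27 in untreated cells, the ratio was 1.39-fold, and the log2 change was 0.48 ± 0.16, with a limma adjusted p of 0.0460. Among the genes annotated to any listed region of the 4 comparisons, the nearest was Atp5j, a subunit of the ATP synthase, 124 kb away. Other genes may lie nearer. In RefSeq's order on GRCm38, 38 genes lie between D16Ertd472e and Atp5j, the annotated genes on either side, and 5 of them code for proteins. One of the non-coding ones is Mir155hg, the host gene of the TNF-inducible miR-155. It was picked out after the values were seen, and its distance from the region was not measured, since the builds differ.

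In chr12:20201901-20202900 the counts were 432, 434 and 469 in TNF-treated libraries, against 271, 300 and 416 in untreated libraries. The enrichment was 6.78 in treated and 2.60 in untreated cells, and the log2 change was 0.46 ± 0.17, with a limma adjusted p of 0.0473. In chr8:46024001-46025000 they were 204, 223 and 205, against 101, 175 and 178. The groups did not overlap, but with a log2 change of 0.52 ± 0.24 and a limma adjusted p of 0.0696 this region did not pass.

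In the 17 lower regions the libraries of each group stood far apart. Treated library b was the lowest of the 6 in 15 of the 20 regions, and untreated library b the highest in 12. In the 2211 lower regions of other classes treated libraries a, b and c had medians of -0.605, -1.33 and -0.833. The untreated libraries a, b and c stood there at 0.29, 0.169 and -0.461. In the region with the largest decrease, chr13:3114301-3116200, the counts were 355, 41.0 and 64.4 in TNF-treated libraries, against 894, 1449 and 140 in untreated libraries, a log2 change of -2.52 ± 0.94 (limma adjusted p of 0.0484). In chr2:83270501-83271800 they were 311, 32.0 and 61.6, against 757, 721 and 91.7, and in chr16:3389301-3390500 they were 394, 39.2 and 107, against 872, 940 and 149. Neither passed limma, with adjusted p of 0.0662 and 0.0576. Untreated library c was at or below the highest treated library in 13 of the 17, a count not made over all listed regions. The groups were apart in 2. In chr12:98298801-98299800 the counts were 163, 49.0 and 138 in TNF-treated libraries, against 256, 210 and 240 in untreated libraries, a log2 change of -1.18 ± 0.41 (limma adjusted p of 0.0461). In chr6:3150101-3151300 they were 295, 50.9 and 171, against 345, 338 and 301, a log2 change of -1.26 ± 0.52 (limma adjusted p of 0.0550).

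Few of these positions recurred across ages, and recurrence in other classes was not measured. One region, chr12:64495401-64496400, was listed at all 3 ages, and it was lower in Tg197 cells at each. At 3 weeks its counts were 88.2, 47.5 and 118 in Tg197 libraries, against 145, 170 and 139 in WT libraries, a log2 change of -0.93 ± 0.28. At 8 weeks they were 63.1, 97.1 and 84.8, against 180, 281 and 82.5, a log2 change of -0.998 ± 0.44 with a limma adjusted p of 0.0771. At 11 weeks they were 41.8, 80.9 and 49.4, against 137, 115 and 116, a log2 change of -1.14 ± 0.24. The region fell by limma at 3 and 11 weeks, with adjusted p of 0.0146 and 0.00434, and its enrichment in WT cells was 2.32, 1.92 and 1.68 at the 3 ages.

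Of the 150 regions of 3 weeks, 14 (9.33%) overlapped one of 11 weeks by at least 1 base, which is 21.2% of the 66 there, and 12 of the 14 pairs had the same direction. Lower regions were 147 of the 150 at 3 weeks, 70 of the 73 at 8 weeks and 52 of the 66 at 11 weeks. Agreement in direction was thus largely set in advance. Between 3 and 8 weeks 9 regions overlapped, 6.00% of the 150 and 12.3% of the 73, with 8 pairs in the same direction. Between 8 and 11 weeks 8 of the 73 (11.0%) overlapped 9 of the 66 (13.6%), with 8 pairs in the same direction and 1 opposite. The pair in opposite directions between 8 and 11 weeks lay on chromosome 12 in the gene desert class. The annotated genes on either side were Hpcal1, a calcium sensor, and Itgb1bp1, which binds integrins. In RefSeq's order on GRCm38, 57 genes lie between these 2, of which 22 code for proteins. At 8 weeks chr12:20202901-20203900 had 261, 228 and 117 in Tg197 libraries, against 282, 267 and 281 in WT libraries, a log2 change of -0.53 ± 0.30 that did not pass limma (adjusted p of 0.125). At 11 weeks chr12:20202701-20203700 had 176, 340 and 315, against 172, 196 and 182, and it rose, with a log2 change of 0.54 ± 0.20 (limma adjusted p of 0.0178). The groups overlapped at 11 weeks through Tg197 library a, and the difference between the ages was not tested. By locus the recurrence was wider, with 12 of 110 loci listed at all 3 ages and 18 at 2. They include chr16:3114101-3390800 with 23 regions, chr13:65624501-66903600 with 15 and chr17:38658101-38719900 with 12. The 13 regions of chrX:121263501-122705700 and the 5 of chr9:3009801-3039200 were listed at 3 weeks alone. As a region is listed only when its own comparison passed, absence from a table does not show that the ages differ.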

How the data were processed

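H3K4me3 ChIP-seq of mouse synovial fibroblasts was used from 4 deposited tables, which are on mm9 and give class, position and, for rows of some classes, a gene. The tools in the submitters' processing notes are Cufflinks, Cuffdiff, BWA, TopHat and TopHat2, with no role stated, and no source used here names the region caller. Per the file headers, each cell holds 3 normalized counts per group. The deposited averages are signal values and equal the mean of those 3. The enrichment columns deposited by the authors are a ratio over input. The authors' change is a log2 of treated over control, and the deposited p-value columns come from the authors' test. In 100.0% of values the normalized count came out as whole reads (tolerance 0.02) once divided by the step of its library. Headers say treatment and control, and control was read as WT or untreated since at 54 regions shared by the tables of 8 weeks and of TNF the control reads were equal in 162 of 162 values, and only untreated WT at 8 weeks belongs to both. The tables of 3 and 11 weeks were read the same way.

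Each table was fitted as a whole with limma 3.58.1 (R 4.3.3, variance trend), taking log2 after a pseudocount of 0.5, with Benjamini-Hochberg adjustment over all its regions. "Rose" and "fell" mean an adjusted p under 0.05 there, and "higher" and "lower" the same in the authors' deposited comparison. Errors of log2 changes are limma's SE. Normalized counts are not raw counts, so no count model was used except voom on the recovered reads. The scripts were tested on simulated data. Since regions were listed on the same libraries, these p-values are not independent evidence. Counting error from limited depth is included in the spread between libraries.

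Named regions were, per comparison, class and direction, up to 4 with the largest limma change among those past the authors' adjusted p of 0.05 with groups that do not overlap, up to 3 per comparison and class with the highest mean, and those listed at all 3 ages. Other regions described fell outside this rule and were mostly picked after their values were seen, whether or not the text says so there. They include the regions on chromosome Y and the blocks of neighbouring regions. Flanking genes and distances were computed here from the genes that the tables annotate to any listed region, so other genes may lie nearer. Members and lists were chosen with earlier results of these data known. Plots and counts used Python 3.11.15, pandas 2.3.3 and matplotlib 3.10.9. No genome of the mm9 build was used here, so no sequence is shown. The input library has no values of its own in the tables. Alternatives were another pseudocount (4), a minimum mean of 20, 3 other scalings, voom, leaving out each library, stricter or no threshold on the authors' p (0.001), 1 region per locus and a stricter overlap.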

Additional observations from a re-analysis of the deposited data

Results flagged for a closer look

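One stretch of chromosome 1 was covered by regions that parted the genotypes in opposite directions at 2 ages. At 11 weeks chr1:87407401-87408500 had 123, 154 and 135 normalized counts in Tg197 libraries, against 61.8, 70.6 and 101 in WT libraries, a log2 change of 0.84. At 3 weeks chr1:87408401-87409500, which shares 100 bases with it, had 68.4, 61.5 and 129 in Tg197 libraries, against 151, 148 and 165 in WT libraries, a log2 change of -0.92. All 3 Tg197 libraries were above all WT libraries at 11 weeks and below them at 3 weeks. The difference between the ages was not tested, as the tables were normalized separately. The enrichment was 1.35 in Tg197 and 0.73 in WT cells at 11 weeks, and 0.67 in Tg197 and 0.91 in WT cells at 3 weeks.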

How the results depend on the processing

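All 56 named regions kept their direction and call with a pseudocount of 4 and with a minimum mean of 20. When 1 library was left out, 265 of their values stayed on the same side of the threshold and direction, 25 newly passed and 46 no longer passed. With voom on recovered reads, 51 were the same, 4 newly passed and 1 no longer passed. No paired analysis was possible because the deposited values carry no replicate numbers. Among counts and medians, scaling to the listed regions left 0 fallen at 3 weeks (median -0.231), 2 at 8 weeks (median -0.431), 27 at 11 weeks (median -0.409) and 0 with TNF. Over all listed regions 0.0441%, 2.6%, 10.3% and 8.4% fell, in the same order. Scaling to listed regions near a TSS left 0 that rose at 3 weeks, gave 42 fallen at 8 weeks and a median of -0.898 at 11 weeks, and gave 13 fallen and 1 that rose with TNF. Over all listed regions that scaling gave 0.0221% risen at 3 weeks, 58.8% fallen at 8 weeks, and 63.1% fallen and 7.17% risen with TNF. With voom 14 fell and 1 rose with TNF, against 51.1% and 13.3% of all listed regions. Scaling as in the enrichment columns, chosen after seeing the data, left 0 fallen at 3 weeks (median -0.402) and 0 with TNF. Over all listed regions 0.0956% and 0.0% fell, in the same order. Counting 1 region per locus, also chosen after seeing the data, left 65 fallen and 69 lower at 3 weeks, 29 lower at 8 weeks, and 32 fallen and 31 lower at 11 weeks, because fewer regions were counted. With the authors' adjusted p under 0.001, 1 was higher and 33 lower at 8 weeks, and 6 were higher at 11 weeks. With TNF 1 was higher and 6 lower at that threshold. The shares of all listed regions at that threshold were not counted, so these counts cannot be set against the whole table. With the stricter overlap of the shorter region, 5 regions of 3 weeks overlapped one of 8 weeks. Other causes of these shifts were not tested.

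The direction turned for 6 named regions. Scaled to listed regions, the log2 change was 0.215 at chr8:56199201-56202300 and 0.223 at chr8:56206001-56207700 at 3 weeks, 0.002 at chr6:3133901-3135100 at 8 weeks, and 0.251 at chr8:56207801-56208900 and 0.22 at chr8:56206601-56207600 at 11 weeks. Scaled as in the enrichment columns, it was 0.044 and 0.052 at the 2 regions of 3 weeks and 0.035 at chr16:3114101-3115300 with TNF. None of these regions passed limma as reported.

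Leaving out 1 library gave 0 to 146 fallen, 0 to 3 risen and medians of -1.223 to -0.542 at 3 weeks. At 8 weeks it gave 0 to 69 fallen, 0 risen and medians of -1.722 to -0.879. At 11 weeks it gave 50 to 54 fallen, 8 to 9 risen and medians of -0.821 to -0.682. With TNF it gave 0 to 17 fallen, 0 to 3 risen and medians of -2.962 to -1.399. Over all listed regions the fallen were 0.0% to 89.7% at 3 weeks and 0.0% to 76.5% at 8 weeks. They were 65.6% to 67.3% at 11 weeks and 0.0% to 68.4% with TNF. The risen were 0.0% to 8.79%, 0.0% to 11.2%, 27.0% to 28.4% and 0.0% to 21.4%, in the same order. At 3 weeks the count was 0 fallen and 0 risen without WT library c, as over all listed regions. Without WT library b 74 fell and 0 rose, against 57.5% and 0.978% of all listed regions. Without Tg197 library a or without WT library a 1 rose, against 2.1% and 0.816% of all listed regions. With TNF 17 fell and 1 rose without treated library a, against 45.9% and 11.1% of all listed regions. Depth limits the lowest values, such as the 14 reads of Tg197 library b at chr13:66535401-66536400.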
